A study of Homo sapiens with 6 samples.

Results

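Keratins are the intermediate filament proteins of epithelial cells, and 55 of the 27408 gene symbols in the deposited table are keratin genes. They were taken by name, as all symbols made of KRT, a number and at most one letter from A to C, which leaves out keratin-associated proteins and pseudogenes. There are 28 genes of type I (acidic keratins), 26 of type II (basic to neutral keratins) and KRT222, a keratin-like gene left unclassed. The RNA came from the established human pancreatic cancer lines PANC-1 and MIA-PaCa2, each overexpressing ESRP1, overexpressing ESRP2 or carrying the control construct that the labels name LPCX. The ESRP proteins bind RNA and direct exon choice in epithelial cells. Each of the 6 combinations of line and construct was 1 library, so a construct has no replicate within a line, and the labels do not say whether the cells were a clone or a pool. No treatment was given in any group.

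A keratin filament is built from pairs of one type I and one type II chain, so the supply of both types must be balanced, and unpaired chains are degraded. Simple epithelia such as pancreatic ducts use KRT8 with KRT18 and KRT19, and commonly KRT7. Stratified epithelia use KRT5 with KRT14 and KRT15 in the basal layer and other pairs above it, for example KRT4 with KRT13 in moist linings and KRT1 with KRT10 in epidermis. Hair and nail have a further set. Desmosomes and hemidesmosomes anchor the filaments to neighbouring cells and to the matrix.

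The values are TPM, which account for transcript length and library size. They are shares of a library, so a comparison between libraries also depends on what else each library holds. Median ratio scaling, used as an alternative, had log2 factors from -0.0546 in MIA-PaCa2 LPCX to 0.0582 in PANC-1 ESRP2. TPM keeps no read number, so the depth behind each value is unknown. A library had between 10578 and 10932 genes with at least 5 TPM, and its 10 most abundant genes took 10.8% to 13.7% of all TPM. The introduced genes were high where the labels place them, with ESRP1 at 491 TPM in PANC-1 ESRP1 and 367 TPM in MIA-PaCa2 ESRP1, and ESRP2 at 308 TPM in PANC-1 ESRP2 and 197 TPM in MIA-PaCa2 ESRP2. With LPCX, PANC-1 already held 34.8 TPM of ESRP2, against 0.0704 TPM in MIA-PaCa2 LPCX.

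The 6 type I keratins that reached 5 TPM in a library are shown by the 33 coding bases at the start of their rod, the coiled-coil stretch through which a type I and a type II chain pair. The sequences are those of GENCODE release 29 on GRCh38, 5′ to 3′, and capitals mark the bases that are the same in all 6. These were 25 of the 33 bases, and the KRT15 and KRT16 stretches were identical.
KRT18 (chr12:52949432-52949464, plus strand): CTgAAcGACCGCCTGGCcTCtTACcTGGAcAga
KRT19 (chr17:41527957-41527989, minus strand): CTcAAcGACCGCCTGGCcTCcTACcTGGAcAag
KRT13 (chr17:41505188-41505220, minus strand): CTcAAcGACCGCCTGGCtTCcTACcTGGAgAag
KRT15 (chr17:41518462-41518494, minus strand): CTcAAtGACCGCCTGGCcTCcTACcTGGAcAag
KRT10 (chr17:40822097-40822129, minus strand): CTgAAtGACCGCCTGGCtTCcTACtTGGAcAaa
KRT16 (chr17:41612287-41612319, minus strand): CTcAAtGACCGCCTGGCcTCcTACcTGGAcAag

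Of the 26 type II genes, KRT8 and KRT80 reached 5 TPM. Over the whole coding sequence KRT13 and KRT15 were 82.6% identical, KRT13 and KRT19 74.2%, KRT15 and KRT19 73.1%, KRT18 and KRT19 65.0%, and KRT8 and KRT80 66.2%. Reads from identical stretches cannot be told apart by sequence. Of the stretches of 31 bases in the main KRT8 and KRT18 transcripts, 56.6% and 60.4% occur in another GENCODE gene, 61 and 66 genes in all, many of them pseudogenes of these keratins. Within the genes of the deposited table the shared percentage was 14.3% for KRT8 and 7.05% for KRT18. It was at most 2.79% for KRT19, KRT13, KRT15, KRT80 and KRT10 and 37.6% for KRT16, so the KRT16 level is uncertain.

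The simple epithelial keratins made up most keratin mRNA in both lines, and KRT8 and KRT18 were higher in MIA-PaCa2 while KRT19 was higher in PANC-1. KRT8, the type II chain of simple epithelia, had 823, 716 and 684 TPM in PANC-1 with ESRP1, ESRP2 and LPCX, and 2223, 1854 and 1772 TPM in MIA-PaCa2 with ESRP1, ESRP2 and LPCX. The means were 741 ± 73.1 TPM in PANC-1 and 1950 ± 240 TPM in MIA-PaCa2 (SD over the 3 constructs, n = 3 each). The lines did not overlap, and in both lines the ESRP1 library was the highest. In order of level among all genes KRT8 held places 144 to 176 in PANC-1 and 53 to 70 in MIA-PaCa2.

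KRT18, the type I partner of KRT8, had 737, 680 and 695 TPM in PANC-1 with ESRP1, ESRP2 and LPCX, and 1747, 1571 and 1421 TPM in MIA-PaCa2 with ESRP1, ESRP2 and LPCX. Its means were 704 ± 29.8 TPM in PANC-1 and 1579 ± 163 TPM in MIA-PaCa2 (SD, n = 3 each). As with KRT8 the lines did not overlap. The ratio of KRT8 to KRT18 was 1.12, 1.05 and 0.983 in PANC-1 with ESRP1, ESRP2 and LPCX, and 1.27, 1.18 and 1.25 in MIA-PaCa2 with ESRP1, ESRP2 and LPCX. The pair therefore differed in abundance between the lines by more than its chains differed from each other within any library.

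KRT19, the shortest keratin and a widely used marker of duct cells, had the opposite order of lines. It had 417, 366 and 502 TPM in PANC-1 with ESRP1, ESRP2 and LPCX, and 313, 250 and 234 TPM in MIA-PaCa2 with ESRP1, ESRP2 and LPCX. The means were 428 ± 68.6 TPM in PANC-1 and 266 ± 41.7 TPM in MIA-PaCa2 (SD, n = 3 each), with no overlap. In PANC-1 the LPCX library was the highest of the 3, and in MIA-PaCa2 it was the lowest.

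KRT7, the other type II keratin of ducts, was low in both lines. It had 1.92, 1.57 and 2.00 TPM in PANC-1 with ESRP1, ESRP2 and LPCX, and 0.475, 0.228 and 0.176 TPM in MIA-PaCa2 with ESRP1, ESRP2 and LPCX. KRT20 and KRT23, other type I keratins of simple epithelia, did not exceed 0.0457 TPM and 0.117 TPM in any library.

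**Figure D1:**
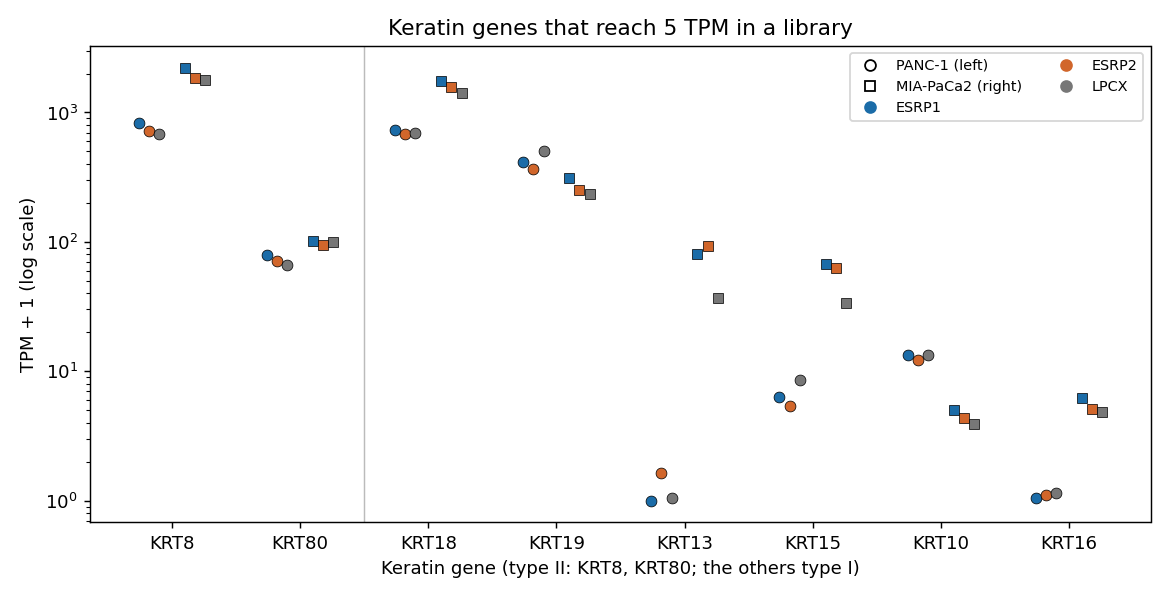
Level of the 8 keratins that reach 5 TPM in a library, as TPM + 1 on a log scale, with 1 point for each library, PANC-1 (circles) left of MIA-PaCa2 (squares), coloured by construct. KRT8 and KRT18 are higher in all 3 MIA-PaCa2 libraries, KRT19 and KRT10 in all 3 PANC-1 libraries, and KRT13 lies between 0 and 0.633 TPM in PANC-1 against 35.6 to 91.7 TPM in MIA-PaCa2.

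Among keratins of stratified epithelia, KRT13, KRT15 and KRT16 were high or present in MIA-PaCa2 and low in PANC-1, KRT10 was higher in PANC-1, and KRT80 differed by less. KRT13, a type I keratin of moist stratified linings such as the oesophagus, had 0, 0.633 and 0.0495 TPM in PANC-1 with ESRP1, ESRP2 and LPCX, and 79.0, 91.7 and 35.6 TPM in MIA-PaCa2 with ESRP1, ESRP2 and LPCX. It was near 0 in every PANC-1 library, and in MIA-PaCa2 both ESRP libraries lay above LPCX. KRT4, the type II chain that pairs with KRT13 in those linings, stayed at or below 0.439 TPM in PANC-1 and 0.444 TPM in MIA-PaCa2.

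KRT15, a type I keratin of basal keratinocytes, had 5.28, 4.41 and 7.55 TPM in PANC-1 with ESRP1, ESRP2 and LPCX, and 66.8, 62.1 and 32.5 TPM in MIA-PaCa2 with ESRP1, ESRP2 and LPCX. The means were 5.75 ± 1.62 TPM in PANC-1 and 53.8 ± 18.6 TPM in MIA-PaCa2 (SD, n = 3 each). The lines did not overlap, and the place of the LPCX library was highest in PANC-1 and lowest in MIA-PaCa2, as for KRT19. KRT13, KRT15 and KRT19 are direct neighbours on chromosome 17 of GRCh38 (RefSeq), at chr17:41500981-41505612, chr17:41513745-41518890 and chr17:41523617-41528308, with 8132 and 4726 bases between them.

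KRT16, a type I keratin that rises in wounded and hyperproliferative epidermis, had 0.0513, 0.104 and 0.145 TPM in PANC-1 with ESRP1, ESRP2 and LPCX, and 5.16, 4.11 and 3.83 TPM in MIA-PaCa2 with ESRP1, ESRP2 and LPCX. It was low in both lines and reached 5 TPM in 1 library only. Its usual type II partners KRT6A and KRT6B had at most 0.649 and 0.308 TPM in PANC-1 and at most 0.882 and 0.283 TPM in MIA-PaCa2.

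KRT10, the type I keratin of the upper epidermal layers, had 12.2, 11.3 and 12.4 TPM in PANC-1 with ESRP1, ESRP2 and LPCX, and 3.97, 3.32 and 2.94 TPM in MIA-PaCa2 with ESRP1, ESRP2 and LPCX. Every PANC-1 library lay above every MIA-PaCa2 library, while KRT1, its epidermal partner, stayed at or below 0.0348 TPM in all 6. KRT80, a type II keratin of many differentiating epithelia, had 77.8, 70.2 and 65.5 TPM in PANC-1 with ESRP1, ESRP2 and LPCX, and 100.1, 94.3 and 98.3 TPM in MIA-PaCa2 with ESRP1, ESRP2 and LPCX. It was the second most abundant type II keratin in every library, and the lines did not overlap.

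The remaining 47 keratins were low. They comprise 4 genes that reached 1 TPM but not 5 TPM (KRT81, KRT86, KRT7 and KRT5), 21 that were above 0 but under 1 TPM in every library, and 22 that were listed at 0 in all 6. The members nearest to the 5 TPM line were KRT16, whose highest library had 5.16 TPM, and KRT81, whose highest library had 4.93 TPM. By class, 3 of 6 simple epithelial and 5 of 22 stratified epithelial keratins reached 5 TPM. None of 9 keratins of the hair follicle root sheath and none of 17 of hair and nail did so, and 6 and 10 of these were listed at 0 in all libraries.

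KRT5, the type II keratin of basal cells, had 0.0739, 0.632 and 0 TPM in PANC-1 with ESRP1, ESRP2 and LPCX, and 1.57, 0.604 and 0.708 TPM in MIA-PaCa2 with ESRP1, ESRP2 and LPCX. KRT14, its type I partner, had 0, 0.990 and 0 TPM in PANC-1 with ESRP1, ESRP2 and LPCX, and 0.940, 0.641 and 0.848 TPM in MIA-PaCa2 with ESRP1, ESRP2 and LPCX. For both genes the PANC-1 ESRP2 library stood apart from the other PANC-1 libraries. For KRT5 that library lay within the range of MIA-PaCa2, and for KRT14 it lay above every MIA-PaCa2 library. All these values were at about 1 TPM or less apart from KRT5 in MIA-PaCa2 ESRP1.

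The hair keratin KRT81 had 0.593, 0.253 and 0.846 TPM in PANC-1 with ESRP1, ESRP2 and LPCX, and 2.62, 4.93 and 1.55 TPM in MIA-PaCa2 with ESRP1, ESRP2 and LPCX. KRT86, its neighbour in the type II cluster, had 0.873, 1.20 and 0.611 TPM in PANC-1 with ESRP1, ESRP2 and LPCX, and 1.16, 2.86 and 1.46 TPM in MIA-PaCa2 with ESRP1, ESRP2 and LPCX. Their coding sequences were 93.7% identical, and 43.2% of the stretches of 31 bases in KRT81 occur in KRT86, so the split of reads between them is uncertain. KRT75, a root sheath keratin, was at 0.646, 0.976 and 0.797 TPM in PANC-1 with ESRP1, ESRP2 and LPCX, against at most 0.0456 TPM in MIA-PaCa2.

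**Figure D2:**
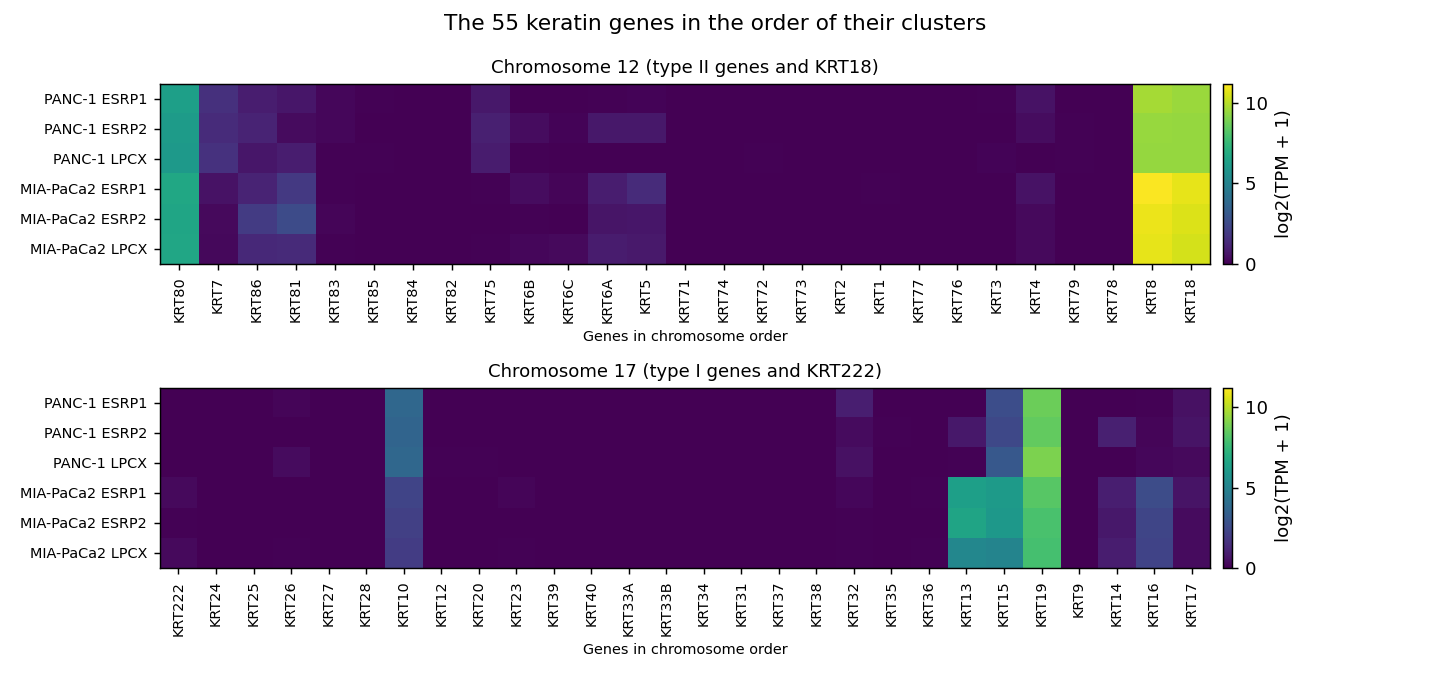
The 55 keratin genes in chromosome order, 27 on chromosome 12 and 28 on chromosome 17, with colour for log2(TPM + 1) in each library and PANC-1 above MIA-PaCa2. KRT8 and KRT18 lie side by side at the end of the chromosome 12 cluster, and the neighbours KRT13, KRT15 and KRT19 form the expressed block on chromosome 17, where KRT13 and KRT15 have higher levels in MIA-PaCa2.

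The lines differed in total keratin mRNA and in the balance of the types. All keratins together had 2079, 1857 and 1972 TPM in PANC-1 with ESRP1, ESRP2 and LPCX, and 4547, 3941 and 3608 TPM in MIA-PaCa2 with ESRP1, ESRP2 and LPCX. That was 0.186% to 0.208% of TPM in PANC-1 and 0.361% to 0.455% in MIA-PaCa2. Bulk RNA cannot tell more keratin mRNA in each cell from more cells that hold it.

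Type I keratins summed to 1173, 1064 and 1218 TPM in PANC-1 with ESRP1, ESRP2 and LPCX, and type II keratins to 906, 793 and 754 TPM in these libraries. In MIA-PaCa2 with ESRP1, ESRP2 and LPCX the sums were 2216, 1983 and 1732 TPM for type I and 2331, 1958 and 1876 TPM for type II. The ratio of type I to type II was thus 1.29, 1.34 and 1.62 in PANC-1 and 0.951, 1.01 and 0.923 in MIA-PaCa2, in the order ESRP1, ESRP2, LPCX. Type I mRNA was in excess in all 3 PANC-1 libraries, most with LPCX, and the types were close to even in MIA-PaCa2.

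KRT19 accounted for 35.5%, 34.4% and 41.2% of type I TPM in PANC-1 with ESRP1, ESRP2 and LPCX, and for 14.1%, 12.6% and 13.5% in MIA-PaCa2 with ESRP1, ESRP2 and LPCX. KRT13 and KRT15 together made up 0.450%, 0.474% and 0.624% of type I TPM in PANC-1 with ESRP1, ESRP2 and LPCX, and 6.57%, 7.76% and 3.93% in MIA-PaCa2 with ESRP1, ESRP2 and LPCX. KRT8 and KRT18 were 69.9% to 75.2% of all keratin TPM in PANC-1 and 86.9% to 88.5% in MIA-PaCa2.

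**Figure D3:**
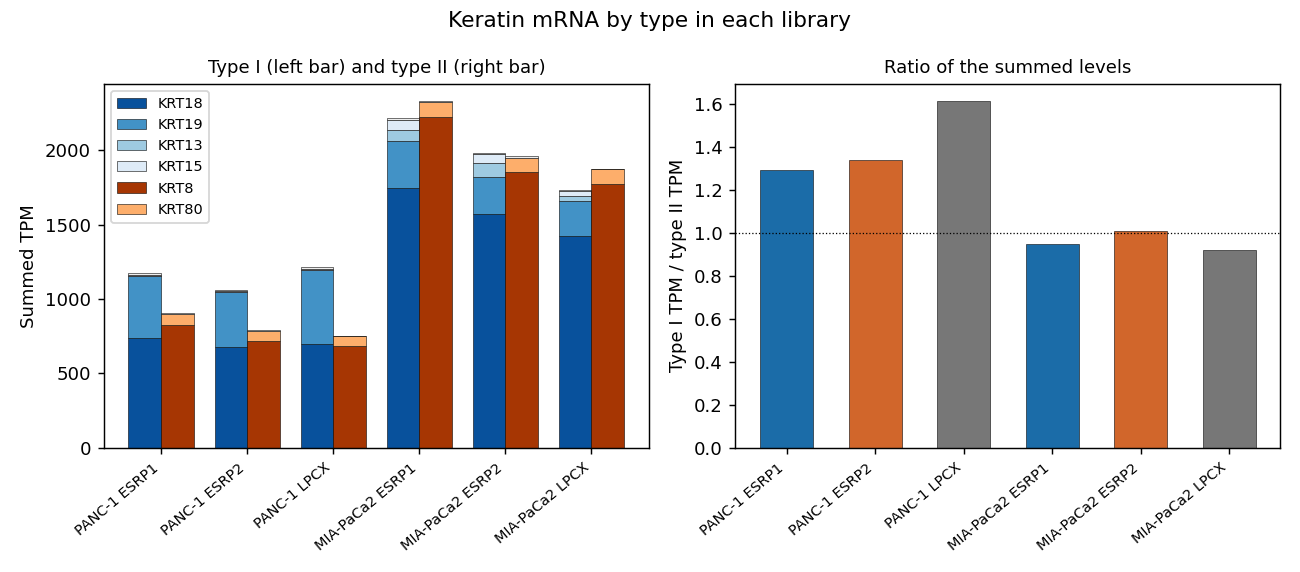
Summed TPM of type I (left bar) and type II (right bar) keratins in each library, split by gene, and the ratio of the sums with a dotted line at 1. The ratio is 1.29 to 1.62 in the PANC-1 libraries and 0.923 to 1.01 in the MIA-PaCa2 libraries.

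The line comparison was tested with limma on log2(TPM + 1) over the 11829 genes that reached 5 TPM in 2 or more libraries, with construct as a term and Benjamini-Hochberg adjustment over all of them. The samples of a line differ by construct and no label describes separate cultures, so p-values measure the spread between these libraries. Of all genes tested 78.8% were called at an adjusted p under 0.05 (43.1% higher and 35.6% lower in PANC-1). Of the 7 keratins that passed the filter, KRT13 did so through MIA-PaCa2 alone and KRT10 through PANC-1 alone. A gene that enters through 1 line alone is selected in part for a difference between the lines. KRT13 and KRT10 are therefore described by their levels and log2 differences, with no p. The other 5 reached 5 TPM in both lines and all 5 were called, 1 higher and 4 lower in PANC-1. Of the 10012 genes that reached 5 TPM in both lines 75.3% were called, and nothing is read from the count of 5.

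Simple keratins: KRT8 was lower in PANC-1 by a log2 difference of -1.39 (SE 0.063, limma adjusted p = 1.69e-05), and KRT18 by -1.16 (SE 0.073, limma adjusted p = 4.85e-05). KRT19 was higher in PANC-1 by 0.68 (SE 0.138, limma adjusted p = 0.00531). For KRT19 the difference was 0.41 and 0.55 between the ESRP1 and ESRP2 libraries of the lines and 1.09 between the LPCX libraries.

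Stratified keratins: KRT15 was lower in PANC-1, at -2.98 on the log2(TPM + 1) scale (SE 0.315, limma adjusted p = 0.000364), with -3.43, -3.54 and -1.97 between the ESRP1, ESRP2 and LPCX libraries of the lines. KRT80 was lower by a difference of -0.45 (SE 0.066, limma adjusted p = 0.00141). The log2 difference of KRT13 was -5.76 (SE 0.227) and that of KRT10 was 1.56 (SE 0.110). KRT16 did not pass the filter and was not tested.

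The second question was what either splicing protein did to keratin levels. No keratin was called for ESRP1 or ESRP2 against LPCX over both lines, and the keratins past 2-fold within a line were KRT13 and KRT15 in MIA-PaCa2. There KRT13 was 2.22-fold higher in ESRP1 and 2.58-fold higher in ESRP2 than in LPCX, and KRT15 was 2.06-fold and 1.91-fold higher. In PANC-1, KRT15 was 0.699 times the LPCX level in the ESRP1 library and 0.584 times in the ESRP2 library. These are ratios of 1 library to 1 library and carry no test, and both ratios of a line share its LPCX library.

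Among genes with at least 5 TPM in either library, 0.538% were at least 2-fold higher and 0.742% at least 2-fold lower in MIA-PaCa2 ESRP1 than in LPCX, and among 7 keratins KRT13 and KRT15 were past 2-fold and higher. In MIA-PaCa2 ESRP2, 0.808% of genes were past 2-fold in each direction, and KRT13 was the 1 keratin of 6. In PANC-1, 0.368% of genes were at least 2-fold higher and 1.14% lower with ESRP1, and 0.377% higher and 1.58% lower with ESRP2, with no keratin of 6 among them in either comparison. The KRT15 value in MIA-PaCa2 ESRP1 lies close to the line and fell below 2-fold with median ratio scaling, which leaves KRT13.

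The abundant simple keratins differed less. KRT8 had log2 ratios to LPCX of 0.27 (ESRP1) and 0.07 (ESRP2) in PANC-1, and of 0.33 and 0.07 in MIA-PaCa2. KRT18 had 0.08 and -0.03 in PANC-1 and 0.30 and 0.14 in MIA-PaCa2, and KRT19 had -0.27 and -0.45 in PANC-1 and 0.42 and 0.09 in MIA-PaCa2, in the same order of constructs. The sign was thus shared by the lines for KRT8 and opposite for KRT19.

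**Figure D4:**
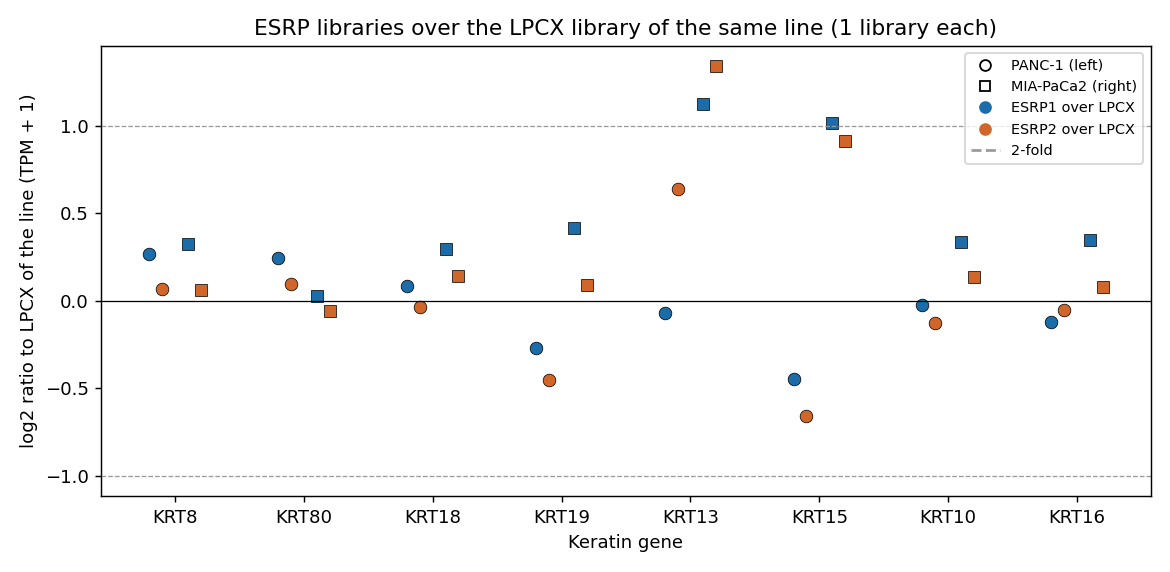
Log2 ratio of TPM + 1 in each ESRP library to the LPCX library of its line, PANC-1 (circles) left of MIA-PaCa2 (squares), for the 8 keratins that reach 5 TPM, with dashed lines at 2-fold. KRT13 in both MIA-PaCa2 ESRP libraries and KRT15 in MIA-PaCa2 ESRP1 lie past 2-fold, and KRT15 and KRT19 lie below 0 in PANC-1 and above 0 in MIA-PaCa2.

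In the limma fit over both lines, with the line as a block, ESRP1 minus LPCX called 1 of 11829 genes (0.00845%), ESRP1 itself, and 0 of 7 keratins, with 820 genes and 1 keratin at an unadjusted p under 0.05. That keratin was KRT8, at 0.30 (SE 0.077, limma adjusted p = 0.658), higher with ESRP1 in 2 of 2 lines. KRT13 was at 0.53 (SE 0.278), KRT15 at 0.29 (SE 0.386) and KRT18 at 0.19 (SE 0.089), none of them called, and the estimates of all 7 were positive, as were those of 68.3% of all genes. The median was 0.19 for the keratins and 0.06 for all genes. Without the LPCX library of MIA-PaCa2 the KRT15 and KRT19 estimates were negative, at -0.47 and -0.23, and those of KRT13 and KRT18 were 0.05 and 0.09. Without the ESRP1 library of MIA-PaCa2 KRT15 and KRT19 were at -0.05 and -0.13, and KRT13 was at 0.11. Without the ESRP1 or the LPCX library of PANC-1 KRT13 was at 0.95 and 1.005, and without PANC-1 LPCX KRT18 was at 0.29.

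ESRP2 minus LPCX called 2 of 11829 genes (0.0169%) and 0 of 7 keratins. The introduced gene ESRP2 was not among the 2, at 5.32 (SE 1.11, limma adjusted p = 0.329). Its log2 ratio to LPCX was 3.11 in PANC-1 and 7.53 in MIA-PaCa2. A fit that does not call the introduced gene cannot show that keratins were unchanged. At an unadjusted p under 0.05 there were 1634 genes and 1 keratin. That keratin was KRT13, at 0.99 (SE 0.278, limma adjusted p = 0.329), which includes a PANC-1 pair with 0.633 TPM in ESRP2 against 0.0495 TPM in LPCX. The KRT13 estimate was 0.51 without MIA-PaCa2 LPCX, 1.46 without PANC-1 LPCX and 1.83 with a pseudocount of 0.1 TPM. KRT19 was at -0.18 (SE 0.169) and KRT15 at 0.13 (SE 0.386), and KRT15 was at -0.63 without the LPCX library of MIA-PaCa2. The median was 0.06 for the keratins as for all genes, and 6 of 7 were positive, of which KRT10 (-0.05), KRT18 (-0.0048) and KRT80 (-0.04) were negative with median ratio scaling.

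ESRP1 minus ESRP2, the direct comparison of the paralogs, called 1 gene (0.00845%), ESRP1 itself, and 0 of 7 keratins, with 497 genes and 1 keratin at an unadjusted p under 0.05. ESRP2 was not called, at -5.24 (SE 1.11, limma adjusted p = 0.952). KRT8 was at 0.23 (SE 0.077, limma adjusted p = 0.952), KRT19 at 0.25 (SE 0.169) and KRT13 at -0.46 (SE 0.278). A p above the threshold in a fit with 2 residual degrees of freedom does not show that the constructs act alike on keratins.

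Whether the ESRP response differed between the lines was asked in a further fit, added after the data were seen, which compares the mean of both ESRP libraries over LPCX between PANC-1 and MIA-PaCa2. The fit treats the ESRP1 and ESRP2 libraries of a line as replicates, so its SE and p come from the gap between them. The fit holds no measure of the spread of LPCX, which was 1 library in each line. It called 0 of 11829 genes (0%) and 0 of 7 keratins, with 487 genes and 2 keratins at an unadjusted p under 0.05. KRT15 had a mean log2 ratio of -0.55 in PANC-1 and 0.97 in MIA-PaCa2, a difference of -1.52 (SE 0.188, limma adjusted p = 0.548). KRT19 had -0.36 in PANC-1 and 0.25 in MIA-PaCa2, a difference of -0.62 (SE 0.231, limma adjusted p = 0.969). KRT13 had 0.28 in PANC-1 and 1.23 in MIA-PaCa2, a difference of -0.95 (SE 0.447, limma adjusted p = 0.969). The line differences of KRT15 and KRT19, whose mean ratios had opposite signs in the lines, therefore did not pass the test over all genes. The signs themselves were not tested.

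The shares of the main KRT8 and KRT18 transcripts changed little with construct. KRT8 was assigned to NM_002273 at 97.8% to 98.2% in PANC-1 and 99.1% to 99.3% in MIA-PaCa2, and KRT18 to NM_000224 at 98.5% to 99.1% and 99.5% to 99.7%. A minor KRT8 transcript, NR_045962, begins within the KRT18 gene on the opposite strand, at chromosome 12 position 52949842. It had 10.99, 10.9 and 10.3 TPM in PANC-1 with ESRP1, ESRP2 and LPCX, and 7.80, 6.32 and 5.72 TPM in MIA-PaCa2 with ESRP1, ESRP2 and LPCX. It was higher in PANC-1, where KRT8 as a whole was lower. Strand use in the quantification is not given in the sources used here.

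KRT80 has a transcript with a longer coding sequence, NM_182507, and one with a shorter coding sequence, NM_001081492, which share 1234 coding bases and then end differently. NM_001081492 held 31.3%, 30.1% and 31.8% of KRT80 in PANC-1 with ESRP1, ESRP2 and LPCX, and 28.7%, 28.2% and 30.6% in MIA-PaCa2 with ESRP1, ESRP2 and LPCX. The shares varied by a few percentage points over all 6 libraries. KRT13 likewise has NM_153490 and NM_002274, whose coding sequence is shorter, and these share 1244 coding bases. The little KRT13 in PANC-1 ESRP2 and LPCX was assigned to NM_002274, while NM_153490 held 97.8% to 100% of KRT13 in MIA-PaCa2. After the shared bases NM_002274 has 16 more coding bases, which are shown because the coding sequences of the forms differ only at their ends. They lie within the span of the last 130 coding bases of NM_153490 (chr17:41501259-41501744), so they are not taken as particular to NM_002274. Capitals mark these 16 bases.
KRT13 NM_002274 (chr17:41501347-41501362, minus strand): GAAGCGTCAGCCCCCG

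Genes that work with keratins were read in lists of anchoring linkers, other intermediate filament proteins, keratin-binding proteins and transcription factors. Of 13 tested linkers 11 reached 5 TPM in both lines, and of these 7 were called higher and 4 lower in PANC-1, beside 75.3% called among all such genes. PPL (periplakin), which entered through PANC-1 alone, had 98.9 to 120 TPM in PANC-1, against at most 0.151 TPM in MIA-PaCa2, with a log2 difference of 6.62 (SE 0.091). PERP, a desmosomal membrane protein, was at 3.21 (limma adjusted p = 5.97e-06), and JUP (plakoglobin) at 2.65 (limma adjusted p = 3.06e-06). PLEC (plectin), a broad linker of filaments, was at 0.74 (limma adjusted p = 0.000241).

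The linkers lower in PANC-1 included the hemidesmosome parts. COL17A1 had 0.0998, 0.1999 and 0.174 TPM in PANC-1 with ESRP1, ESRP2 and LPCX, and 62.0, 42.9 and 45.1 TPM in MIA-PaCa2 with ESRP1, ESRP2 and LPCX, a log2 difference of -5.44, and entered through MIA-PaCa2 alone. ITGB4, the integrin chain that binds plectin, was at -4.06 (limma adjusted p = 5.01e-05), while its partner ITGA6 was at 1.57 (limma adjusted p = 1.61e-05). DSP (desmoplakin), which ties keratin filaments to desmosomes, was at -1.55 (limma adjusted p = 0.000336). The linkers of the desmosome and the hemidesmosome thus did not share a direction.

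Vimentin, the intermediate filament protein of mesenchymal cells, was more abundant than all keratins together in every library. VIM had 4647, 4738 and 4143 TPM in PANC-1 with ESRP1, ESRP2 and LPCX, and 5605, 5620 and 5523 TPM in MIA-PaCa2 with ESRP1, ESRP2 and LPCX. The ratio of VIM to summed keratin was 2.24, 2.55 and 2.10 in PANC-1 with ESRP1, ESRP2 and LPCX, and 1.23, 1.43 and 1.53 in MIA-PaCa2 with ESRP1, ESRP2 and LPCX. VIM itself differed by a log2 value of -0.31 (SE 0.087, limma adjusted p = 0.0191). Of 7 tested genes of this list 6 reached 5 TPM in both lines, and of these SYNM was called higher in PANC-1, at 2.68, 4 were called lower (BFSP1, LMNB1, LMNB2 and VIM), and LMNA was not called, at 0.10. NES, at 2.52, entered through PANC-1 alone.

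**Figure D5:**
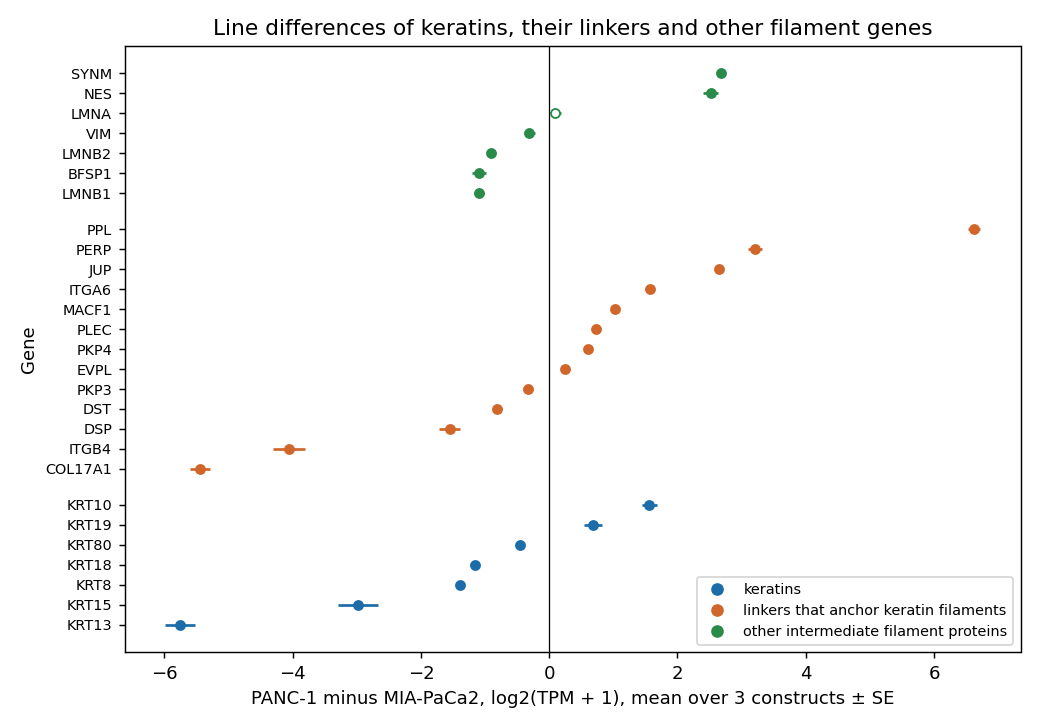
Log2 difference between PANC-1 and MIA-PaCa2 (limma on log2 of TPM + 1, bars show the standard error) for tested keratins, linkers and other intermediate filament genes, with filled points called at an adjusted p under 0.05. The linkers range from 6.62 for PPL to -5.44 for COL17A1, and the keratins from 1.56 for KRT10 to -5.76 for KRT13. PPL, COL17A1, KRT10, KRT13 and NES reached 5 TPM in 1 line alone, so their filled points are not read as calls.

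Of 17 keratin-binding and filament-organising proteins 16 reached 5 TPM in both lines, and of these 4 were called higher and 6 lower in PANC-1 (62.5% called, against 75.3% of all such genes). SFN, the 14-3-3 sigma protein, had 209, 218 and 197 TPM in PANC-1 with ESRP1, ESRP2 and LPCX, and 19.5, 14.4 and 7.31 TPM in MIA-PaCa2 with ESRP1, ESRP2 and LPCX, a log2 difference of 3.92 (limma adjusted p = 3.45e-05). FLG, which bundles keratin in the epidermis, was at 2.53 and entered through PANC-1 alone, and the lowest were AKT1 at -1.28 and YWHAE at -0.94.

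Of 16 transcription factors tied to keratin genes 9 reached 5 TPM in both lines, and of these 3 were called higher and 2 lower in PANC-1 (55.6% called, against 75.3% of all such genes). TP63, the factor of basal epithelial cells that acts on KRT5, KRT14 and KRT15, had 0.269, 0.116 and 0.288 TPM in PANC-1 with ESRP1, ESRP2 and LPCX, and 110, 64.2 and 85.1 TPM in MIA-PaCa2 with ESRP1, ESRP2 and LPCX. EHF, an epithelial ETS factor, had at most 0.0298 TPM in PANC-1, against 30.7 to 45.8 TPM in MIA-PaCa2. TP63 and EHF had log2 differences of -6.13 and -5.20 and entered through MIA-PaCa2 alone. FOXA2 at 5.65 and GRHL3 at 3.70 entered through PANC-1 alone, and FOXA2 was listed at 0 in all MIA-PaCa2 libraries. KLK7, a protease of cornified cells, was the 1 tested gene of 22 for keratinocyte differentiation, at -3.69, and entered through MIA-PaCa2 alone.

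No gene of these lists was called for ESRP1 or ESRP2 against LPCX. The estimates furthest from 0 among the factors were those of GRHL1, a grainyhead factor of epithelia, at 0.97 for ESRP1 (SE 0.151, limma adjusted p = 0.598) and 0.94 for ESRP2 (SE 0.151, limma adjusted p = 0.329). The 13 linkers had a median of 0.25 in each comparison, against 0.06 over all genes. DSP was at 0.52 and 0.37 and JUP at 0.36 and 0.43, for ESRP1 and ESRP2. In the same order PKP3 was at 0.40 and 0.09, MACF1 at 0.04 and 0.50, and DST at -0.13 and 0.46. ITGB4 was at -0.14 and -0.03, and COL17A1 at 0.18 and -0.02. Of the 13 linkers 11 had positive estimates for each paralog, beside 68.3% (ESRP1) and 65.1% (ESRP2) of all genes. At an unadjusted limma p under 0.05 were 7 and 6 linkers, beside 820 and 1634 of 11829 genes. ITGA6 was at 0.25 and 0.25, EVPL at 0.26 and 0.29, and PKP4 at 0.34 and 0.30. The estimates were thus alike for both paralogs in some linkers and apart in others. For ESRP1 minus ESRP2, DST was at -0.59 (limma adjusted p = 0.753) and MACF1 at -0.46 (limma adjusted p = 0.810), neither of them called.

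The lines were also read for other cell types. Of 9 tested epithelial and duct markers, CA2, EPCAM, CLDN7 and CDH1 reached 5 TPM in PANC-1 alone. Of the other 5, ESRP2 and MUC1 were called higher and CLDN4 lower in PANC-1 (3 of 5, against 75.3% of all genes that reached 5 TPM in both lines), and ESRP2 is one of the introduced genes. EPCAM had 24.4 to 28.2 TPM in PANC-1 and was listed at 0 in all MIA-PaCa2 libraries, and CDH1 had 3.89 to 8.59 TPM in PANC-1 against at most 0.173 TPM in MIA-PaCa2. The duct marker CFTR was at most 0.013 TPM in any library. None of 12 acinar and islet markers reached 5 TPM, and 7 were listed at 0 in all. Of 13 markers of fibroblasts, endothelium and leukocytes 3 reached 5 TPM, COL1A1 in PANC-1 alone, COL1A2 in MIA-PaCa2 alone and CD68 in both, where it was called higher in PANC-1. The summed level of that list was 363 to 458 TPM in PANC-1 and 148 to 159 TPM in MIA-PaCa2, and its part in the keratin differences was not tested.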

How the data were processed

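RNA sequencing libraries of PANC-1 and MIA-PaCa2 with ESRP1, ESRP2 or LPCX were used, 1 library for each combination. Salmon and GRCh38 (hg38) are named, per the submitters' processing notes, without versions. The authors deposited TPM for RefSeq transcripts, in 67792 lines, of which 8664 repeats were dropped. The 59128 transcripts left were summed to 27408 symbols. Columns were matched to samples by line and construct, and the MIA-PaCa2 ESRP2 and LPCX columns, whose headers are misspelled, were matched by elimination.

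Keratin members, gene lists and tests were chosen with earlier results of these data known. limma 3.58.1 (R 4.3.3) was fitted with a trend to log2(TPM + 1) for the 11829 genes that reached 5 TPM in 2 or more libraries. Line and construct were terms, with Benjamini-Hochberg adjustment and a threshold of 0.05. The cell line is the block, as the labels carry no replicate numbers. Genes that reach 5 TPM in 1 line alone are given no p between the lines, which was decided with the values known. Fits were tested on simulated data. Named genes were the keratins that reach 5 TPM in a library, keratins that reach 1 TPM, and called or most changed list genes, while other low keratins named as partners were added after their values were seen. Sequences and alignments used Biopython 1.88, GENCODE release 29 and RefSeq tables. Alternatives covered pseudocount, filter, scaling, repeats, trend, block and leaving out each library.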

Additional observations from a re-analysis of the deposited data

Results flagged for a closer look

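For 4 of the 8 keratins that reach 5 TPM in a library both ESRP libraries lay on one side of LPCX in PANC-1 and on the other side in MIA-PaCa2. KRT7 and KRT81, which reach 1 TPM but not 5 TPM, had the same pattern. It was found for 3 of 7 tested keratins and 14.2% of the 11829 genes tested. The difference between the lines in the mean log2 ratio of the ESRP libraries to LPCX was -1.52 for KRT15, the basal type I keratin (SE 0.188, limma adjusted p = 0.548). For KRT19, the duct keratin, it was -0.62 (SE 0.231, limma adjusted p = 0.969), and for KRT10, the suprabasal keratin, -0.31 (SE 0.214, limma adjusted p = 0.969). For KRT16, which lay at or below 0.145 TPM in PANC-1, it was -0.30 and was not tested, as KRT16 did not pass the filter on low values. Both ratios of a line share 1 LPCX library, so a shift of that library alone gives both ratios the same sign. The SE and p of these differences come from the gap between the ESRP1 and ESRP2 libraries of a line and leave out the spread of LPCX.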

How the results depend on the processing

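Across 14 alternatives the direction of all 7 tested keratins between PANC-1 and MIA-PaCa2 was kept (98 of 98 values). The call was also kept for the 5 that reached 5 TPM in both lines. KRT13 and KRT10 entered through 1 line alone, so their calls are not read. No keratin was called for a construct. More keratins were called between the lines with looser filters, 11 of 11 tested at 1 TPM in 2 libraries (KRT16, KRT7, KRT81 and KRT86 added), beside 73.9% of 15108 genes, and 14 of 33 with no filter, beside 52.0% of 22710 genes. Members let in by the line where they are high were selected in part for a difference. Without the replicate block (cell line) 0 genes were called for ESRP1 minus LPCX, 0 for ESRP2 minus LPCX and 0 for ESRP1 minus ESRP2. For ESRP2 minus LPCX 0 genes were called with a pseudocount of 0.1 TPM, no filter or a filter of 1 TPM, and 1 without a trend. The line difference in ESRP response called 118 genes with no filter. At 1 TPM the genes past 2-fold were 474 and 523 in PANC-1 with ESRP1 and ESRP2, and 387 and 479 in MIA-PaCa2. Keratins past 2-fold in MIA-PaCa2 were 1 for ESRP1 with median ratio scaling, and 2 for ESRP2 at 1 TPM, where KRT81 joins.

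Leaving out each library in turn gave 8361 to 9061 genes and 7 to 7 keratins called between the lines, KRT13 and KRT10 among them, whose calls are not read. It gave 1 to 1 genes for ESRP1 minus LPCX, 0 to 30 for ESRP2 minus LPCX (30 without MIA-PaCa2 ESRP2, 13 without PANC-1 ESRP2, 0 without any other) and 1 to 23 for ESRP1 minus ESRP2 (23 without PANC-1 ESRP2, 9 without MIA-PaCa2 ESRP2), with 0 to 0 keratins each. The line difference in ESRP response called 0 to 0 genes and could not be estimated without either LPCX library. Uncalled keratin estimates changed sign in 4 of 98 values for ESRP1 minus LPCX, 11 of 98 for ESRP2 minus LPCX and 2 of 98 for ESRP1 minus ESRP2. The cause of these changes was not tested. With no read numbers, the precision of values near 0 is unknown.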

Other observations

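Some low keratins of basal and stratified epithelium were highest in 1 PANC-1 library, a pattern chosen after the values were seen. PANC-1 ESRP2 had 0.990 TPM of KRT14, 0.649 TPM of KRT6A, 0.632 TPM of KRT5 and 0.633 TPM of KRT13, against at most 0.0739 TPM of any of them in PANC-1 ESRP1 and LPCX. KRT6B had 0.308 TPM there, against 0 and 0.0351 TPM in PANC-1 ESRP1 and LPCX. Others did not stand apart, with KRT16 at 0.104, KRT17 at 0.517 and KRT4 at 0.281 TPM in PANC-1 ESRP2, against 0.0513 and 0.145, 0.398 and 0.214, and 0.439 and 0 TPM in PANC-1 ESRP1 and LPCX. The cornified envelope gene SPRR1B and the skin antimicrobial gene S100A7 had 0.405 and 0.769 TPM in PANC-1 ESRP2, and both were listed at 0 in PANC-1 ESRP1 and LPCX. In MIA-PaCa2, SPRR1B was listed at 0 in all libraries and S100A7 reached 0.399 TPM in 1. Of genes that are high in MIA-PaCa2, COL1A2 had 0.0593 TPM in PANC-1 ESRP2, against 0.0148 and 0 TPM in PANC-1 ESRP1 and LPCX. COL17A1 had 0.1999 TPM there, against 0.0998 and 0.174 TPM, EHF 0.0298 TPM, against 0.0149 and 0 TPM, and TP63 0.116 TPM, against 0.269 and 0.288 TPM, in the same order. COL1A2, COL17A1 and EHF were thus also highest in PANC-1 ESRP2, and TP63 was lowest there. KLK7, ITGB4 and KRT15, also higher in MIA-PaCa2, were lowest in PANC-1 ESRP2 too, at 0.0471, 4.88 and 4.41 TPM. They had 0.181, 7.23 and 5.28 TPM in PANC-1 ESRP1, and 0.219, 8.37 and 7.55 TPM in PANC-1 LPCX. Genes that are high in MIA-PaCa2 therefore went both ways in this library. Each value is from 1 library, and no test was made.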
